A study of Neurospora crassa with 12 samples.

Results

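Long annotated introns of Neurospora crassa were described here from the merged transcript annotation of an RNA-seq experiment. A long intron was taken as a gap of 400 bp or more between consecutive exons of a transcript that carries an NC12 gene name, and each intron was counted once by its supercontig, start, end and strand. Of 17854 unique annotated introns, 635 (3.56%, exact 95% interval 3.29 to 3.84) met this length. They lay in 572 of the 7983 annotated genes with an intron (7.17%, interval 6.61 to 7.75), and together they covered 612 separate places in the genome, since alternative transcripts of a gene can hold overlapping introns.

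The reads came from mycelia of 3 strains, WT, Δset-1, which lacks the H3K4 methyltransferase KMT2/SET-1, and Δdim-5, which lacks the H3K9 methyltransferase KMT1/DIM-5. Each strain was grown for 2 days at 25 °C and harvested after 24 h in constant dark (DD24) or after the same dark period followed by 30 min of light (LP30), with 2 libraries in each of the 6 groups. All 12 libraries were pooled by the authors in 1 annotation, which holds positions and no expression level. No difference between strains or light conditions, no replicate error and no read depth can therefore be given for an intron, and the intervals below cover counting error only. The annotated introns come from the reference gene models, whereas the unannotated transcripts, 10690 of the 21475 in the file, come from the reads, and 5406 of these share exon with an annotated gene on the same strand and are called isoforms below.

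An intron is removed from the precursor RNA by the spliceosome, which recognises the 5′ and 3′ splice sites at its ends and a branch point near its 3′ end. Filamentous fungi have mostly short introns that are thought to be recognised across the intron itself, and a common form of alternative splicing in fungi is intron retention. Long introns can hold promoters within the gene, other genes and noncoding transcripts of either strand. A natural antisense transcript (NAT) is transcribed from the opposite strand of a gene, and a long intergenic noncoding RNA (lincRNA) lies outside annotated genes.

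Introns in this annotation were short. The length of all 17854 introns ran from 21 to 1884 bp, with a median of 76 bp and quartiles of 62 and 117 bp. Within the long introns the median was 517 bp, with quartiles of 453.5 and 645 bp. Those of 400 to under 600 bp numbered 437, those of 600 to under 1000 bp numbered 156, and 42 were of 1000 bp or more. The long introns thus made up few of the introns but 18.1% of the summed intron length, 381.673 kb against 1723.31 kb in the shorter ones. At the edge of the rule, the introns of mak-2, NCU03651, NCU08307 and NCU10476 were 1 bp too short and were left out. The 400 bp introns of NCU00940, NCU06124, NCU08463 and NCU17067 were kept.

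**Figure D1:**
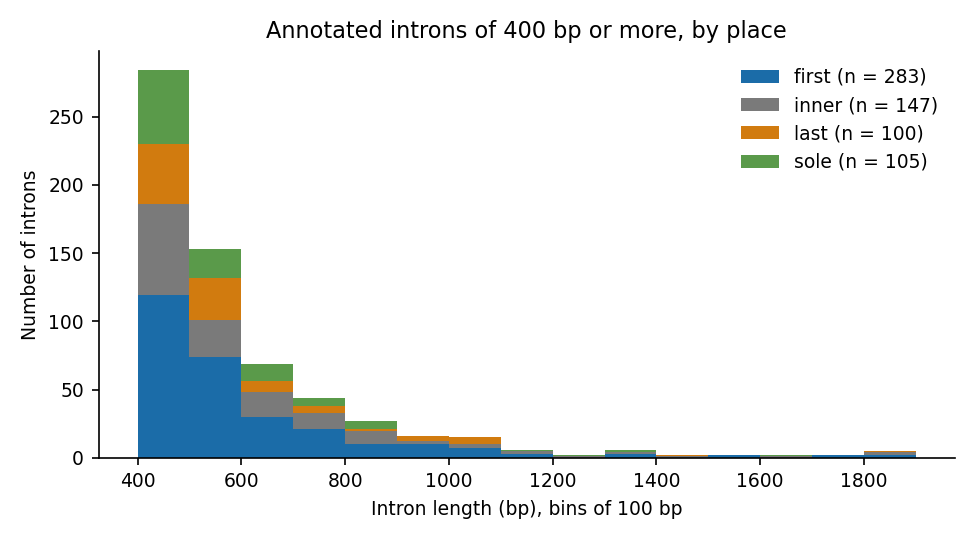
Number of annotated introns of 400 bp or more (y axis) in length bins of 100 bp (x axis), stacked by place in the transcript. The bars fall steeply with length, and 437 of the 635 introns are shorter than 600 bp.

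Most genes with a long intron had only 1. There were 517 such genes, 49 had 2, 5 had 3 and NCU16560 had 5, and in 37 genes at least 2 of the long introns were separate rather than overlapping. By chromosome, the share of introns that were long ran from 2.39% on chromosome VII (43 of 1800, interval 1.73 to 3.20) to 4.28% on chromosome III (98 of 2288, interval 3.49 to 5.20). Genes with a long intron had a median of 3 introns and 1771.5 nt of exon in the transcript with most exons, and the other genes with introns had medians of 2 introns and 1996 nt. Their first exon was also shorter, with a median of 301.5 nt against 444 nt. A long intron therefore did not go with a longer messenger RNA in the median gene.

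The 10 longest introns were found in 9 genes, and the unannotated isoforms across them differed in how they treated the intron. NCU16682 held the longest, 1884 bp, as its last intron (chromosome III, 3702039 to 3703922, minus strand). Across it lay 3 isoforms, of which 1 spliced it exactly, 1 retained it and 1 kept its 5′ splice site but used an intron of 2753 bp. NCU05721 followed with an inner intron of 1873 bp (chromosome III, 631539 to 633411, minus strand), which its only isoform spliced exactly. The first intron of prk-1, 1855 bp, came next and is described with the transcripts inside introns.

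The first intron of stk-10, a gene named as a serine/threonine protein kinase, was 1814 bp (chromosome I, 4892498 to 4894311, minus strand). Of the 6 isoforms across it, 2 spliced it exactly, 2 retained it and 2 used a 3′ splice site 3 bp further on. The next intron of stk-10, 621 bp, was spliced exactly in 2 of these 6 isoforms and retained in the other 4. In en(am)-2 the first introns of 1779 and 1775 bp were 2 annotated forms of 1 intron that share the 3′ splice site (chromosome II, 2574197 to 2575975, minus strand), and its only isoform spliced the 1779 bp form. The set was completed by NCU05685, NCU01527, NCU04254 and fsd-1. NCU05685 had an inner intron of 1659 bp that was spliced exactly in 2 isoforms and retained in 1, and NCU04254 had a first intron of 1593 bp that was retained in its only isoform.

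The 6 genes with 3 or more long introns were of 2 kinds. In NCU00768 the introns of 1167, 849 and 443 bp were separate introns of 1 transcript with 10 introns, and the first and last of them were spliced exactly in all 6 isoforms across. The 849 bp intron was spliced exactly in 4 of the 6 and had 1 end moved in the other 2. NCU09969 also had separate introns, of 567, 495 and 428 bp, but its 567 bp intron was spliced exactly in some isoforms and retained in others. In the other genes the count came in part from alternative annotated transcripts.

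mob-2a, which belongs to the MOB family of kinase activators, had 3 annotated transcripts with first introns of 658, 557 and 538 bp that share the 3′ splice site. No isoform crossed them. fsd-1, known for a role in female sexual development, had introns of 1812, 1494 and 1005 bp in 3 annotated transcripts, of which the 1494 bp intron was spliced exactly by its only isoform. NCU16560 carried introns of 598, 516, 512, 496 and 487 bp in 3 transcripts, and its 487 bp intron was spliced exactly in all 4 isoforms across. NCU09202 had introns of 1103, 426 and 406 bp, each crossed by 9 isoforms, and 7 of the 9 moved the 5′ end of the 1103 bp intron.

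The place of an intron was taken from the annotated transcript with most exons that holds it. Long introns were more often the first intron of their transcript than shorter introns were. Of the 635, 283 (44.6%) were first, 147 (23.1%) inner, 100 (15.7%) last and 105 (16.5%) the sole intron, against 27.3%, 26.7%, 27.4% and 18.6% of the 17219 introns under 400 bp. Among transcripts with 2 or more introns, 53.4% of long introns were first (283 of 530, interval 49.0 to 57.7) against 33.6% of shorter ones (4706 of 14011, interval 32.8 to 34.4). The odds ratio was 2.27 (interval 1.90 to 2.71, Fisher's exact test, adjusted p = 1.38e-19 over 8 tests).

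This difference did not hold when each gene gave only its longest intron. The share of first introns was then 52.8% in genes whose longest intron was long and 50.2% in the others, with an odds ratio of 1.11 (interval 0.912 to 1.35, Fisher's exact test, p = 0.307). The longest intron of a gene with 2 or more introns was thus about as often the first whether or not it reached 400 bp. Introns of 1 gene are not independent, which the tests over all introns do not take into account.

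Position along the exonic length of the transcript gave a difference that was smaller but remained in the longest introns. In the first 3rd of the exonic length, from the 5′ end, lay 61.4% of long introns (390 of 635) and 46.0% of shorter ones (7923 of 17219), with an odds ratio of 1.87 (interval 1.58 to 2.21, Fisher's exact test, adjusted p = 3.85e-14). With the longest intron of each gene the shares were 60.3% and 51.6% (Fisher's exact test, p = 5.26e-05). In genes with only 1 annotated transcript they were 52.1% and 45.1% (odds ratio 1.32, Fisher's exact test, p = 0.00343). In the last 3rd lay 12.9% of long and 17.8% of shorter introns.

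Across the whole range of lengths, the share of first introns rose before the 400 bp mark and was nearly level beyond it. It was 22.3% among introns of 21 to 59 bp, 29.4% at 60 to 79 bp, 38.0% from 80 to under 120 bp and 50.1% from 200 to under 300 bp. Above the threshold it was 53.3% from 400 to under 600 bp, 54.2% from 600 to under 1000 bp and 51.4% from 1000 bp, where only 37 introns had a place and the interval ran from 34.4 to 68.1%. The share of last introns fell from 36.1% at 21 to 59 bp to 20.7%, 13.7% and 18.9% in the same 3 long classes. The excess of first introns was therefore a feature of introns well under 400 bp as well.

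**Figure D2:**
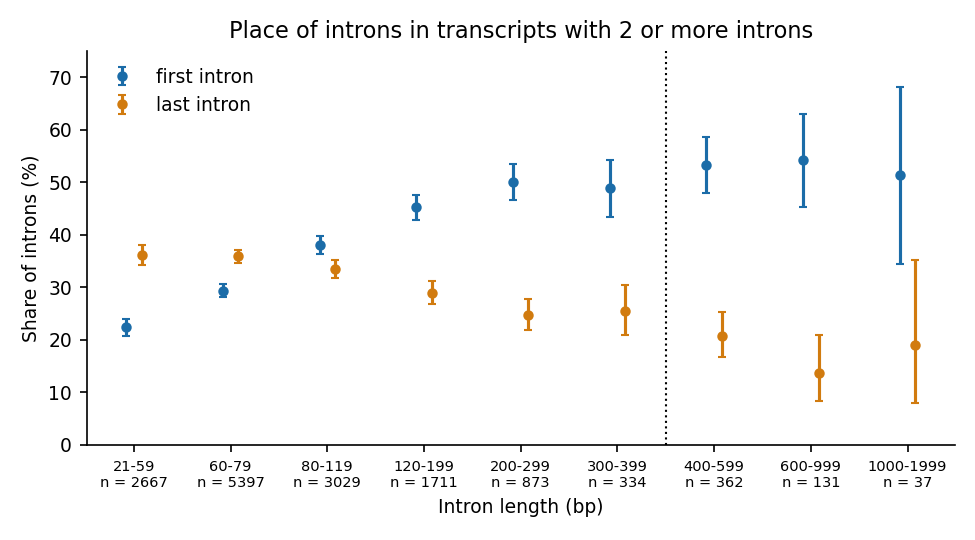
Share of introns that were the first or the last of their transcript (y axis, percent) by intron length (x axis, classes in bp), for transcripts with 2 or more introns. Points are shares, bars are exact 95% intervals, n is the number of introns in the class, and the dotted line marks 400 bp; the share of first introns rises from 22.3% to 50.1% below 300 bp and stays between 48.8% and 54.2% above it.

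The higher share was also seen at each number of introns. In transcripts with 2 introns, 69.2% of long introns were first against 49.9% of shorter ones. The shares were 52.3% and 33.4% in transcripts with 3 introns, 45.8% and 25.2% with 4, and 32.6% and 17.1% with 5 or more. In genes with only 1 annotated transcript, the difference over transcripts with 2 or more introns was smaller. The shares were then 45.3% and 34.1% (odds ratio 1.60, Fisher's exact test, p = 1.70e-05).

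Long first introns followed an exon with a median of 337 nt (quartiles 170.5 and 560 nt), and shorter first introns followed one of 383 nt. Their own median length was 528 bp, against 535 bp for inner, 513.5 bp for last and 497 bp for sole long introns. Place thus separated the long introns by number, and much less by length.

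The gene models behind the long introns were also the more variable ones. In genes with 2 or more annotated transcripts lay 182 of the long introns (28.7%, interval 25.2 to 32.4) against 17.6% of the shorter ones. Within such genes, 19.8% of long introns (36 of 182) were held by every annotated transcript, against 55.0% of shorter introns (1665 of 3029), with an odds ratio of 0.202 (interval 0.135 to 0.295, Fisher's exact test, adjusted p = 1.45e-20). Exon of another annotated transcript of the same gene lay inside 69.8% of these long introns and 33.9% of the shorter ones. A longer intron offers more room for such exon, and the part of length alone was not tested. With the longest intron of each gene, the shares held by every annotated transcript were closer. They were 19.3% for long and 36.9% for shorter introns (odds ratio 0.409, Fisher's exact test, p = 3.37e-05).

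Gene numbers from NCU16000 upward, the end of the locus numbering, were borne by 6.46% of long introns (41 of 635) and 3.23% of shorter ones, with an odds ratio of 2.07 (Fisher's exact test, adjusted p = 7.32e-05). With the longest intron of each gene the shares were 5.42% and 3.78% (odds ratio 1.46, Fisher's exact test, p = 0.0562). Reads had given StringTie a transcript at the locus of 88.3% of long introns (561 of 635) and 93.3% of shorter ones (odds ratio 0.541, Fisher's exact test, adjusted p = 8.05e-06). From 600 bp upward this last difference was not seen, at 91.4% against 93.2% (odds ratio 0.778, Fisher's exact test, p = 0.320). These 3 tests were chosen after the data had been seen.

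Unannotated isoforms show what transcripts outside the reference models did with annotated introns. A transcript that carries an NC12 gene name was not counted, so reads spliced as annotated throughout are left out. The shares below thus do not give how often all reads spliced an intron. An isoform lay across 307 of the 635 long introns (48.3%, interval 44.4 to 52.3) and across 8287 of the 17219 shorter ones (48.1%, interval 47.4 to 48.9), so that nearly equal shares of either class could be read. For these introns each isoform was placed in a class. It had spliced the intron exactly, retained it whole within an exon, moved 1 of its ends, placed an exon inside it, or changed it otherwise.

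Set against all shorter introns, long introns were less often spliced exactly as annotated in these isoforms. At least 1 isoform spliced 47.9% of them exactly (147 of 307) against 70.8% of shorter introns, with an odds ratio of 0.379 (interval 0.299 to 0.480, Fisher's exact test, adjusted p = 4.28e-16). Only 25.7% of long introns were exact in every isoform across, against 57.1% of shorter ones. With the longest intron of each gene the gap was narrower. At least 1 isoform then spliced 47.9% and 57.8% exactly (odds ratio 0.672, Fisher's exact test, p = 0.00193). Among the 30 long introns that were the sole intron of their transcript the lower share was not past the threshold, 26.7% against 45.3% (Fisher's exact test, p = 0.0603).

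The low share of exact splicing began well under 400 bp. It fell from 79.5% at 21 to 59 bp to 48.6% from 200 to under 300 bp and 44.4% from 300 to under 400 bp. In the long classes it was 45.4% from 400 to under 600 bp, 48.6% from 600 to under 1000 bp and 62.5% (20 of 32, interval 43.7 to 78.9) from 1000 bp. The introns just under the threshold were therefore spliced exactly about as often as those just over it.

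Long introns were also more often altered. At least 1 isoform moved an end, placed an exon inside or changed the intron otherwise in 44.0% of long introns (135 of 307) against 14.6% of shorter ones (1208 of 8287), with an odds ratio of 4.60 (interval 3.61 to 5.84, Fisher's exact test, adjusted p = 1.21e-32). A single moved end was seen in 38.1% of long and 12.9% of shorter introns. An exon inside was seen in 12 long introns (3.91%) and in 24 shorter ones (0.290%), which have less room for an exon. In genes with only 1 annotated transcript, where no annotated alternative could be counted as a change, the shares altered were 33.3% and 11.1%. With the longest intron of each gene they were 41.6% and 17.5% (odds ratio 3.36, Fisher's exact test, p = 3.12e-18). By length, the share altered was 7.80% at 21 to 59 bp, 29.9% from 200 to under 300 bp and 36.9% from 300 to under 400 bp. It was 44.9%, 35.7% and 56.3% in the 3 long classes, so that here too the rise began under the threshold.

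Retention was more frequent in long introns over all places, and this held within inner and last introns but not within first or sole introns. It was seen in 43.0% of long introns (132 of 307) and 33.1% of shorter ones (2746 of 8287), with an odds ratio of 1.52 (interval 1.20 to 1.93, Fisher's exact test, adjusted p = 0.000433). Among first introns the share was 42.6% for long and 46.0% for shorter introns (odds ratio 0.870, Fisher's exact test, p = 0.454), and among sole introns it was 46.7% and 48.5%. Among inner introns it was 40.8% and 21.9% (odds ratio 2.46, Fisher's exact test, p = 0.000241), and among last introns it was 45.7% and 27.2% (odds ratio 2.25, Fisher's exact test, p = 0.00756). By length, retention was 27.1% at 21 to 59 bp and was highest, 49.5%, from 300 to under 400 bp, just under the threshold. It was 46.6% from 200 to under 300 bp, and 44.9%, 42.9% and 31.3% in the 3 long classes, so the shares in the nearest shorter classes were above those in the long ones. With the longest intron of each gene the shares were 43.4% and 42.7% (odds ratio 1.03, Fisher's exact test, p = 0.846), and at a threshold of 600 bp they were 39.2% and 33.4% (odds ratio 1.29, Fisher's exact test, p = 0.245). The RNA was depleted of ribosomal RNA and not selected for poly(A), so it can hold unspliced precursor, and the part of precursor in the retained class was not tested.

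**Figure D3:**
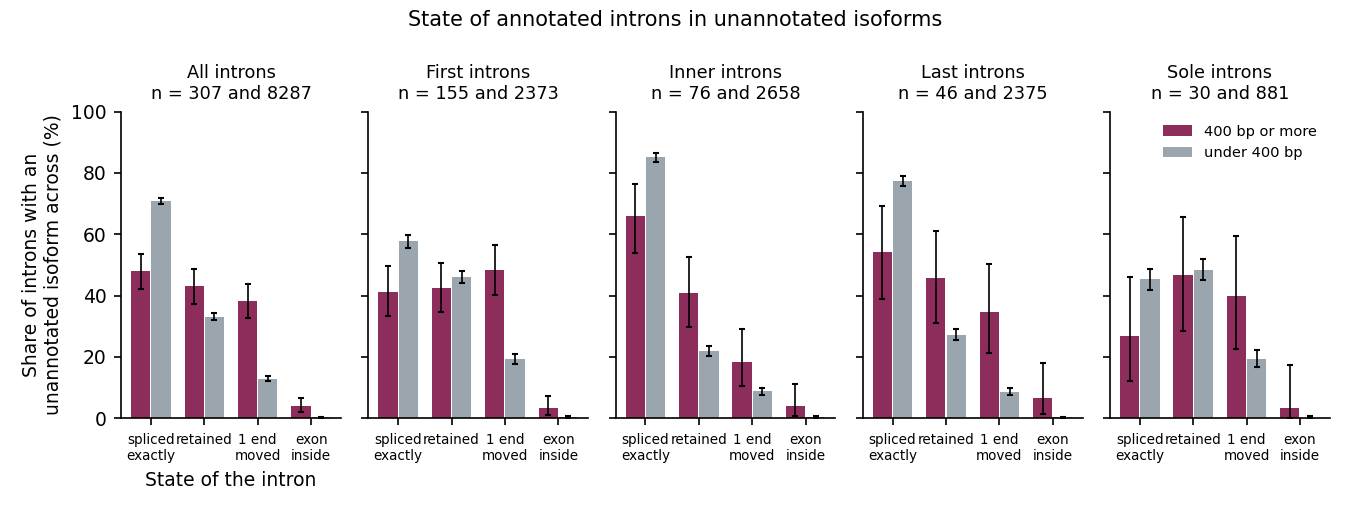
Share of introns crossed by an unannotated isoform (y axis, percent) that were spliced exactly, retained, changed at 1 end or given an exon inside in at least 1 isoform (x axis), for introns of 400 bp or more and under 400 bp, over all places and by place. Bars are shares with exact 95% intervals and n gives the introns in the longer and the shorter class; moved ends reach 38.1% of long against 12.9% of shorter introns over all places, and retention is 42.6% against 46.0% among first introns.

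Counted as pairs of an intron and an isoform, the long introns gave 729 pairs. An isoform counts again for each overlapping annotated form of an intron, as for the 551 and 538 bp introns of aab-1. Genes with such forms or with many isoforms thus weigh more in the shares of pairs. Of the 729 pairs, 267 were exact, 227 had 1 end moved, 187 retained the intron, 22 placed an exon inside and 26 changed it otherwise. In the 227 pairs with a moved end, 124 kept the 5′ splice site and 103 kept the 3′ splice site. The new intron was shorter than the annotated one in 150 of the 227 (66.1%) and was itself under 400 bp in 91 (40.1%). Among introns under 400 bp the new intron was the shorter in 42.6% of 1584 such pairs. Long introns have more room to be shortened, and how far the length rule alone sets this contrast was not tested.

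The distance by which the end moved had a median of 159 bp for long introns (quartiles 20.5 and 367 bp) and 21 bp for the shorter ones. Introns under 400 bp had a median length of 75 bp and so less room to be shortened, and the part of length alone was not tested. For long introns the distance was under 10 bp in 43 of the 227 pairs and 100 bp or more in 137. The new intron was an annotated intron of another transcript in 45 of the 227 pairs (19.8%), and in the other 182 pairs it was in no reference model. The same new intron can count in several pairs, so 182 is not a number of separate introns.

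aab-1 showed how many ends 1 long intron could have. Its first introns of 551 and 538 bp, annotated in separate transcripts, share the 5′ splice site (chromosome III, from 2666504, plus strand), and 10 isoforms crossed them. All 10 moved the 3′ end of the 551 bp intron, to introns of 355, 409, 511, 515, 538 and 546 bp, and 3 of them thereby matched the annotated 538 bp intron. stk-44, also named as a protein kinase gene, was of the other kind. Its inner intron of 820 bp (chromosome IV, 1710812 to 1711631, plus strand) had an exon inside in all 5 isoforms across, and none spliced it as annotated.

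NCU02404 had the most isoforms across a long intron, 13. Its inner intron of 1006 bp was spliced exactly in 6 and had its 5′ end moved in 7, while the next intron of the same gene, 467 bp, was spliced exactly in all 13. hH4v, named as a variant of histone H4, had an inner intron of 460 bp that was exact in all 4 isoforms. In col-22 the first introns of 887 and 696 bp were both retained in all 3. aab-1, stk-44, NCU02404, hH4v and col-22 were chosen after their values were seen.

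Among the listed genes of the light response and clock, 3 of the 19 with an intron had a long one (15.8%, interval 3.38 to 39.6, beside 7.17% of all genes with introns). wc-1, which encodes the blue light photoreceptor and transcription factor White Collar-1, had first introns of 420 and 403 bp in separate annotated transcripts (chromosome VII, 2768285 to 2768704, plus strand, for the longer). The only isoform across them kept the 3′ splice site and used an intron of 828 bp, which was longer than either by 408 and 425 bp. ck-1a, the casein kinase that phosphorylates FRQ, had an inner intron of 615 bp (chromosome I, 7563777 to 7564391, plus strand) that was held by all 3 annotated transcripts and spliced exactly in all 5 isoforms.

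frq, the central gene of the circadian clock, had a first intron of 655 bp (chromosome VII, 3132352 to 3133006, plus strand) and, in another annotated transcript, a sole intron of 498 bp with the same 5′ end. The isoform across them kept the 3′ splice site of the 655 bp intron with an intron of 384 bp. On the opposite strand, 4 unannotated transcripts ran over the intron with their exons, 2 over all 655 bp and 2 over 585 bp. Every base of either frq intron thus lay under exon of an antisense transcript. In the remaining genes of this list the longest intron ran from 68 bp in frh to 203 bp in fwd-1, and csp-1 had none.

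Of 5 listed genes of the carotenoid pathway 1 had a long intron. This was al-3, which encodes geranylgeranyl diphosphate synthase, with a sole intron of 482 bp (chromosome V, 4032066 to 4032547, minus strand). Its only isoform, of 1 exon and 2742 nt, retained it. al-1 and al-2 had longest introns of 108 and 71 bp.

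Of 9 listed heterochromatin genes with an intron 2 had a long intron. dim-9, which encodes a subunit of the complex that brings DIM-5 to its targets, had an inner intron of 510 bp (chromosome II, 2792388 to 2792897, minus strand) that was retained in all 4 isoforms across. hda-1, which encodes a histone deacetylase, had a first intron of 770 bp (chromosome II, 3191694 to 3192463, minus strand), and its 2 isoforms used introns of 766 and 734 bp with the 3′ and the 5′ splice site kept, respectively. dim-5 itself had only 1 intron, of 85 bp. dim-3 was not matched.

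Of 8 listed genes of histones and histone methyltransferases 1 had long introns. set-7, which encodes the H3K27 methyltransferase, had a first intron of 765 bp and a last of 588 bp (chromosome I, 414217 to 414981 and 410716 to 411303, minus strand), and 1 isoform of a single exon of 7713 nt retained both. The longest intron of set-1 was 78 bp. Genes of this kind outside the list also had long introns, of 491 bp in hH2Az, 460 bp in hH4v and 452 bp in set-3, which were noticed after their values were seen. No listed gene of RNA interference had a long intron, 0 of 7, which allows a share of up to 41.0% (exact interval), and the longest was 181 bp in qip. With so few genes in each list the intervals all include the share over all genes.

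**Figure D4:**
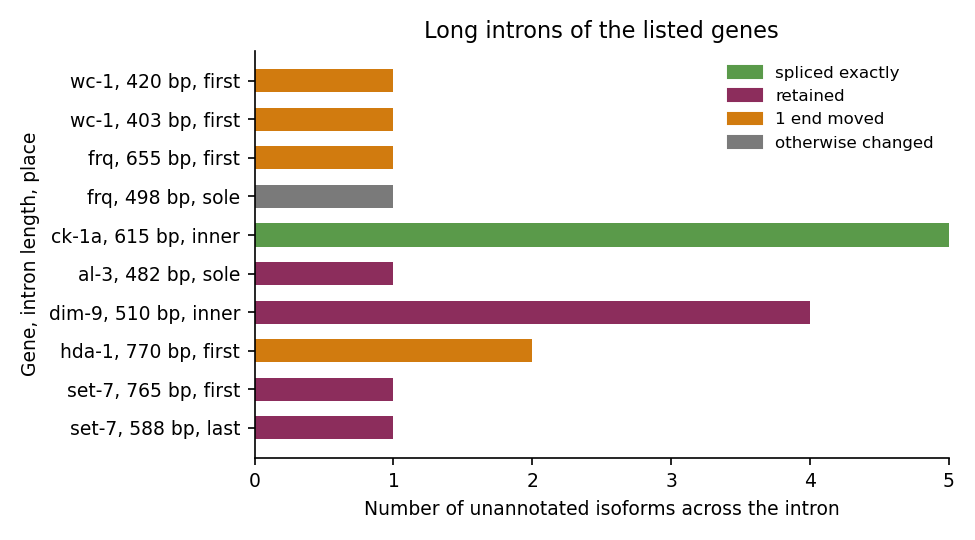
Number of unannotated isoforms (x axis) across each long intron of the listed genes (y axis, with gene, length and place), coloured by what the isoform did with the intron. The intron of ck-1a was spliced exactly in 5 isoforms and that of dim-9 retained in 4, and the other introns had 1 or 2 isoforms each.

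Transcripts lying wholly within a long intron were rare. Of the 635 introns, 6 held an unannotated transcript (0.945%, interval 0.348 to 2.05), 4 on the same strand as the gene and 2 on the opposite strand, and all 6 transcripts had 1 exon. Among shorter introns only that of NCU08334, 397 bp, held any, of 359 bp. The shortest unannotated transcript in the file spanned 200 bp, so that most shorter introns had no room. Introns of 200 to under 400 bp, with a summed length of 411.752 kb against 381.673 kb in the long introns, held that 1 transcript.

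On the opposite strand, MSTRG.10089.1 lay in the first intron of prk-1 (chromosome V, 5132332 to 5134186, plus strand). It covered 288 bp and ended 10 bp from the 5′ end of the intron, at 5132342 to 5132629. The same intron held the start of 4 isoforms of prk-1, at 5133223, 5133251, 5133252 and 5133577, all further into the intron, while the 3 isoforms across it spliced it exactly. MSTRG.2480.1 lay in the first intron of csr-1, the cyclosporin A resistance gene that encodes a cyclophilin. It spanned 569 of the 858 bp (66.3%; chromosome I, 7405585 to 7406153, plus strand).

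On the same strand as the gene, the share of the intron spanned ran from 34.8% to 92.0%. MSTRG.6893.1 spanned 436 of the 474 bp of the first intron of NCU06590, and MSTRG.6874.1 spanned 337 of the 429 bp of the sole intron of NCU06571. MSTRG.2653.1 spanned 387 of the 982 bp of the first intron of NCU00594. MSTRG.13224.1 spanned 227 of the 652 bp of the first intron of NCU05883 and was the only 1 of the 6 to lie over exon of an annotated gene, NCU05882 on the other strand. A same-strand transcript of 1 exon within an intron cannot be told apart from a piece of unspliced precursor in this annotation.

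A whole annotated gene lay in 1 long intron. NCU09828, with 2 exons and 339 nt, sat on the opposite strand in the last intron of NCU09827, 1063 bp (chromosome V, 526152 to 527214, plus strand), and occupied 40.7% of it. Exon of some other annotated gene reached into 22 long introns (3.46%, interval 2.18 to 5.20), in 20 of them from the opposite strand and in 2 from the same strand. The share among shorter introns was 1.88%.

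**Figure D5:**
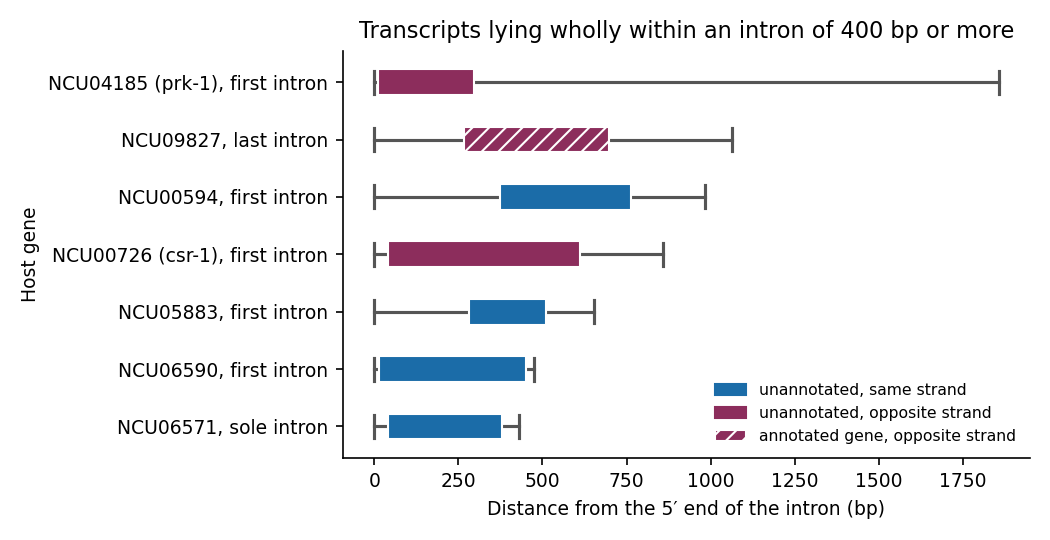
The 7 long introns that held a whole transcript, drawn from the 5′ end of the intron (x axis, bp) and named by host gene and place (y axis). Each line is an intron and each box the span of the transcript inside it; the spans cover between 15.5% of the intron, in prk-1, and 92.0%, in NCU06590.

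NATs reached into more of the long introns than lay within them. Exon of an unannotated opposite-strand transcript that was no isoform of a gene lay in 84 of the 635 (13.2%, interval 10.7 to 16.1) against 7.04% of shorter introns. Per base the classes were closer, since 8.05% of long intron bases and 6.58% of shorter intron bases were under such exon. For comparison it covered 6.28% of the exon bases of the genes with a long intron and 6.91% of those of other genes with introns. Wholly covered were 24 long introns (3.78%) and 5.53% of shorter ones, which need fewer bases to be covered.

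The longest stretch was in emp-1, where antisense exon covered 1094 bp of the first intron of 1342 bp (81.5%; chromosome I, 2675122 to 2676463, plus strand). NCU01527 followed with 1086 bp of its sole intron of 1605 bp (67.7%; chromosome II, 3186279 to 3187883, minus strand), whose only isoform across retained the intron. Among the introns wholly covered were those of NCU01923 (785 bp), NCU01334 (727 bp), NCU01450 (620 bp), NCU07390 (589 bp) and NCU05135 (577 bp), beside those of frq. No isoform crossed the introns of NCU01923, NCU01334, NCU01450 and NCU07390, and the only isoform across that of NCU05135 changed it. The introns named here, except that of frq and NCU01527, were chosen after their values were seen.

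In 6 long introns an unannotated transcript on the opposite strand had an intron with the same 2 ends (0.945%, against 1.08% of shorter introns). They were in gpd-1, which encodes glyceraldehyde-3-phosphate dehydrogenase, and in emp-7, NCU07666, NCU00706, NCU07829 and NCU07503. The first intron of gpd-1 was 562 bp, and its mirrored intron was in MSTRG.4341.1. These 6 genes were noticed after their values were seen. The splice site letters that fix the strand of an intron were not analysed here, and the strand of these transcripts is that of the deposited file.

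Ends of isoforms fell inside long introns as well. An isoform started inside 41 of them (6.46%, interval 4.67 to 8.66) against 0.447% of shorter introns, and 23 of the 41 were first introns, 12 inner, 2 last and 4 sole. Per 10 kb of intron there were 1.44 starts in long and 0.499 in shorter introns. By length the density was 0.753 per 10 kb from 200 to under 400 bp, 0.995 from 400 to under 600 bp, 1.47 from 600 to under 1000 bp and 3.08 beyond, where the 17 starts lay in 11 introns. A start counts again for each overlapping annotated form of an intron, as for the 1812 and 1005 bp introns of fsd-1. Isoforms with the same start also count separately. Counted in this way, the density of starts was higher in each longer class.

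Isoform ends were fewer. They fell inside 16 long introns (2.52%), 8 of them last introns, and their density was 0.472 per 10 kb against 0.221 in shorter introns. Counted in the same way, starts inside numbered 55 and ends 18. prk-1 and NCU15835 had 4 starts each in their first introns, of 1855 and 952 bp, and in either gene the 3 isoforms that crossed the whole intron spliced it exactly. NCU15835 was chosen after its values were seen.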

How the data were processed

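The source was RNA-seq of Neurospora mycelia from 3 strains (WT, Δdim-5, Δset-1) at DD24 and LP30, 12 libraries in 6 groups. Per the labels, ribosomal RNA was depleted, a TruSeq kit version 2 was used and reads were paired, of 100 bp. The authors mapped the reads to NC12 with HISAT2 version 2.1.0, with the existing annotation as a guide. The isoforms were thus not obtained independently of the annotated introns. StringTie version 1.3.3b was run sample by sample with its defaults, and the transcripts were merged with the NC12 annotation in 1 deposited file. It holds the positions of transcripts and exons, counted from 1. The score column of the deposited file is a constant or, for reference transcripts carried over, a dot, and is no expression level. Depth per library is unknown, and strand is given as the file gives it.

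Introns were the gaps between exons of transcripts with a reference gene ID. Symbols came from a RefSeq gene table, by locus tag (7982 of the 7983 genes with an intron were found). An isoform was an unannotated transcript sharing at least 1 bp of exon with the gene on its strand, and lay across an intron when it began before and ended after it. Shares carry exact Clopper-Pearson 95% intervals. Fisher's exact test, 2-sided, compared introns of 400 bp or more with the rest, adjusted by Benjamini-Hochberg over 8 tests, 5 of them planned and 3 added (Python 3.11.15, scipy 1.17.1). Lists were counted without a test. Introns, isoforms and the test were tested on simulated data. The members and lists were chosen with earlier results of these data known. Named were the 10 longest introns, genes with 3 or more long introns, introns holding a transcript, the longest antisense cases, listed genes and introns at the threshold, and any others are said to be chosen after their values were seen. Alternatives were other length thresholds, the longest intron of each gene, genes with assembled transcripts, other rules for place and isoforms, and subsets by place, intron number, isoform number and annotated transcripts. Splice site letters, coding regions and gene products were not analysed here.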

Additional observations from a re-analysis of the deposited data

How the results depend on the processing

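Of 62 values under alternatives, 52 kept their direction and their side of the threshold of 0.05, with the counts of introns holding a transcript, 7 at 300 bp and 4 at 600 bp, included as kept. Not counted are 3 values for isoforms in genes with an assembled transcript, where the counts could not change because an intron with an isoform across always has such a gene. The share of first introns lost its difference with the longest intron of each gene (odds ratio 1.11, Fisher's exact test, p = 0.307). Retention lost it at 600 bp (1.29) and with the longest intron of each gene (1.03), and turned below 1 among first introns (0.870) and sole introns (0.930), while it held among inner (2.46) and last introns (2.25). Exact splicing lost it among sole introns (0.440). Among the added tests, late gene numbers lost it with the longest intron of each gene (1.46) and assembled loci at 600 bp (0.778). Why these calls were lost was not tested, beyond the smaller number of introns at 600 bp and in the sole class. Introns with an unannotated transcript inside numbered 6, and 306 when 1 bp of exon counted, which includes the isoforms of the gene, and 0 when the transcript had to have 2 or more exons. Subsets by place, intron number, isoform number and annotated transcripts were chosen after seeing the data. No paired analysis was possible because the file pools all libraries, and for the same reason no replicate could be left out. Letters at splice sites and place against the coding region were not run. The number of reads behind a transcript is unknown, so a missing isoform is not an unused one.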

Other observations

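Long introns of genes with a symbol, 98 in 85 genes, lay in first place more often than those of genes without. In transcripts with 2 or more introns, 70.3% of them were first (64 of 91, exact 95% interval 59.8 to 79.5), against 49.9% in genes without a symbol (219 of 439, interval 45.1 to 54.7). Among introns under 400 bp the shares were 31.2% and 34.0%. This was seen in the data and was not tested, and genes with a symbol differ from others in how well they were studied.

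The share of genes with a long intron varied between symbol families, which were chosen after seeing the data. It was 4 of 11 genes named crf, for chromatin remodelling factors (36.4%, exact interval 10.9 to 69.2), 5 of 48 named stk (10.4%, interval 3.47 to 22.7) and 2 of 16 named tca (12.5%). It was 0 of 70 named gh, for glycoside hydrolases (interval up to 5.13%), 0 of 17 named mus, 0 of 13 named vma and 0 of 12 named rpn. Over all 1026 genes with an intron and a symbol it was 8.28% (interval 6.67 to 10.1).

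On chromosome II, hda-1, NCU01527 and gpd-1, whose locus numbers nearly follow each other, each had a long intron, of 770, 1605 and 562 bp. The intron of NCU01527 was under 1086 bp of antisense exon, that of gpd-1 had a mirrored intron on the opposite strand, and that of hda-1 had neither. This stretch was noticed in the data and no test was made.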
